A study of Mus musculus with 6 samples.

Results

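Fap, Nrk, Esm1 and Calcb were followed across cultured cells of the mouse embryonic stomach and intestine. None of the 4 encodes a transcription factor. They were picked from 12393 measured genes because earlier readings of these arrays had shown them high in stomach, low in intestine and raised in intestine that expressed BARX1. Their levels in those comparisons are therefore given as a description, without a test. All 4 genes were found on the array, with 1 probe set each for Fap, Esm1 and Calcb and 3 for Nrk.

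Tissue was taken from C57BL/6 embryos at embryonic day 13.5, digested with collagenase-dispase and then trypsin, and the collected cells were grown for 3 days in medium with 20% serum, a procedure meant to deplete the endoderm. The 6 Affymetrix arrays formed 3 groups of 2 biological replicates. Stomach and intestine controls are titled wildtype, yet their embryos are labelled Rosa26+/Barx1 or Bapx1+/Cre. By that label each carried 1 allele of the model without the other, and the labels do not say which. Embryos of the third group, here called Barx1 intestine, carried both alleles (Rosa26+/Barx1;Bapx1+/Cre), and Cre made from the Bapx1 locus (Nkx3-2) turned on Barx1 at Rosa26 in cells that use that locus. The cultures were not sorted, and whether tissues of several embryos were pooled is not given in the sources used here.

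BARX1 belongs to the homeodomain transcription factors and marks the stomach mesenchyme, the connective tissue and muscle layer that surrounds the gut lining. Such factors act by binding short A/T-rich sites near genes, and they are studied in the gut because the mesenchyme instructs the lining above it. The genes described here encode proteins of other kinds. FAP is a serine protease on the surface of fibroblasts, NRK is a kinase of the Ste20 family, ESM1 (endocan) is a secreted proteoglycan best known from endothelial cells, and CALCB is the precursor of the neuropeptide beta-CGRP, which dilates blood vessels and is made by sensory and enteric neurons.

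Array values are on the log2 scale, so 1 unit is a doubling. The arrays had medians of 6.93 to 6.98 and lower quartiles of 4.72 to 4.76. A level below the lower quartile was not shown to exceed background. Barx1 itself followed the labels, at 9.82 and 9.79 for stomach, 8.66 and 8.79 for Barx1 intestine and 5.13 and 4.93 for intestine. Array values cannot separate transcripts of the transgene from those of the endogenous gene. Smooth muscle genes were bright on every array (list means of 10.94 to 11.38 over 10 genes). Genes of the endoderm lining were also present, with means of 6.30 to 7.98 over 20 genes, although Shh and Ihh lay below the lower quartile on all 6 arrays.

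Fap lies on chromosome 2 (62500936 to 62575509 in GRCm38.p6). Its probe set 1417552_at read 9.22 and 9.32 on the stomach arrays, 8.34 and 8.56 with BARX1 in intestine, and 4.90 and 5.50 on the intestine controls. The groups did not overlap, and the lowest array with BARX1 stood 2.84 above the highest intestine array. Mean levels were 9.27 ± 0.07 in stomach, 8.45 ± 0.15 with BARX1 and 5.20 ± 0.42 in the intestine controls (SD, n = 2 each). Stomach exceeded intestine by 4.07 (16.8-fold), and Barx1 intestine exceeded intestine by 3.25 (9.50-fold), with an SE of 0.20 for each. Fap ranked at position 4 of 12393 genes in the difference of stomach from intestine and at position 3 in that of Barx1 intestine from intestine. In intestine, its replicates differed by 0.60, more than did the replicates of 97.1% of genes.

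Nrk lies on the X chromosome (138914231 to 139010532). Its brightest probe set, 1450079_at, read 10.61 and 10.77 on the stomach arrays, 10.44 and 10.54 with BARX1 in intestine, and 8.62 and 8.51 on the intestine controls. The intestine arrays already stood at the 67.4th and 68.7th percentiles of their probe sets, so Nrk was well within the measured range in every group. Mean levels were 10.69 ± 0.12, 10.49 ± 0.07 and 8.57 ± 0.08 for stomach, Barx1 intestine and intestine (SD, n = 2 each). The excess over intestine was 2.12 in stomach (4.35-fold) and 1.93 in Barx1 intestine (3.80-fold), with an SE of 0.09 for each.

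The other probe sets of Nrk gave the same order of groups. Probe set 1450078_at read 8.57 and 8.62 for stomach, 8.22 and 8.51 for Barx1 intestine and 6.57 and 6.43 for intestine, with differences from intestine of 2.10 and 1.87. The dimmest, 1436399_s_at, read 4.63 and 5.07 for stomach, 4.59 and 4.43 for Barx1 intestine and 3.98 and 3.29 for intestine. Its differences were smaller, at 1.22 and 0.88, and 5 of its 6 values lay below the lower quartile. There the lower stomach array and the higher Barx1 intestine array nearly met, closer than replicates of either group.

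**Figure D1:**
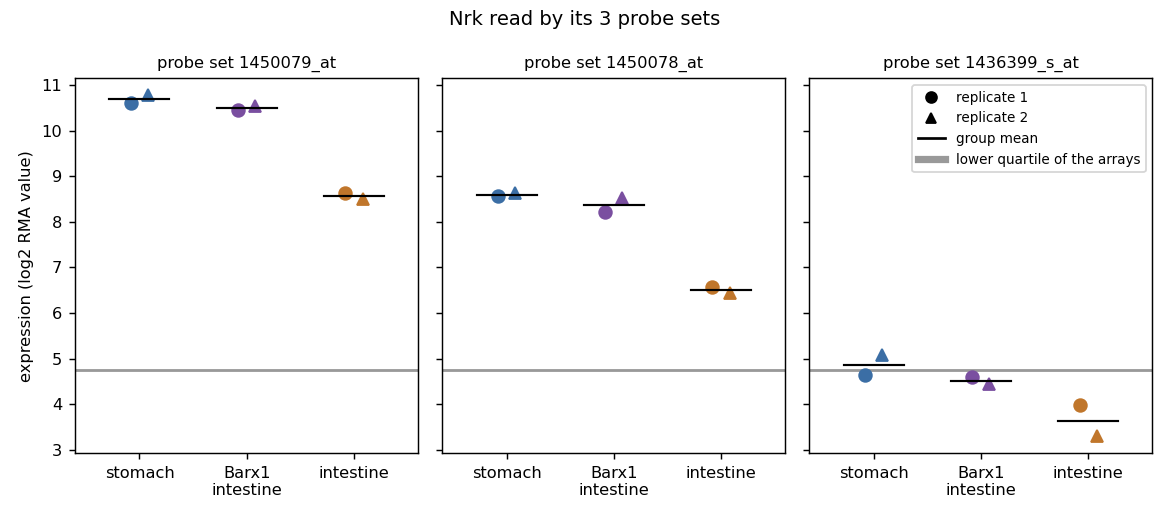
Levels of Nrk (log2 RMA value, vertical axis) on each of the 6 arrays by group, for its 3 probe sets from brightest to dimmest; circles and triangles are replicates 1 and 2, black lines group means, and the grey line the lower quartile of the arrays (4.72 to 4.76). Intestine is lowest in every panel, and the third probe set lies around or below the quartile.

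Esm1 lies on chromosome 13 (113209659 to 113218104). Probe set 1449280_at read 8.20 and 8.35 on the stomach arrays, 7.61 and 7.67 with BARX1 in intestine, and 5.54 and 5.72 on the intestine controls. The 3 groups were apart from each other on all arrays. Mean levels were 8.28 ± 0.11, 7.64 ± 0.04 and 5.63 ± 0.13 for stomach, Barx1 intestine and intestine (SD, n = 2 each). Stomach exceeded intestine by 2.65 (6.27-fold) and Barx1 intestine did so by 2.01 (4.04-fold), with an SE of 0.09.

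Calcb lies on chromosome 7 (114716555 to 114723368). Probe set 1422639_at read 6.59 and 6.34 on the stomach arrays, 5.25 and 6.13 with BARX1 in intestine, and 4.09 and 4.08 on the intestine controls. Both intestine arrays lay below the lower quartile, at the 16.6th and 16.4th percentiles, so the level there has only an upper bound. Means were 6.47 ± 0.18, 5.69 ± 0.62 and 4.09 ± 0.01 for stomach, Barx1 intestine and intestine (SD, n = 2 each), and the differences from intestine were 2.38 (5.21-fold) and 1.60 (3.04-fold), with an SE of 0.28. With values below the quartile raised to it, those differences were 1.74 and 0.96. The replicates of Barx1 intestine differed by 0.88, more than those of 99.4% of genes, and the difference from intestine was 2.04 without replicate 1 and 1.16 without replicate 2 of that group.

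**Figure D2:**
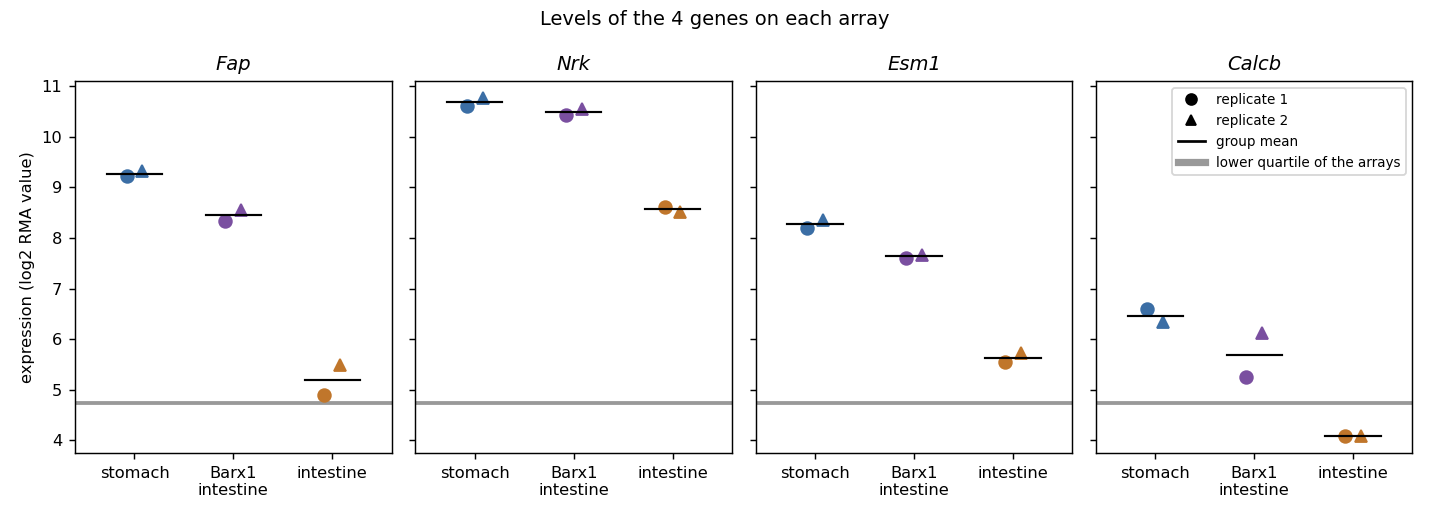
Levels of Fap, Nrk, Esm1 and Calcb (log2 RMA value, vertical axis; brightest probe set of each) on each array by group; circles and triangles are replicates 1 and 2, black lines group means, and the grey line the lower quartile of the arrays. Every stomach and Barx1 intestine array lies above both intestine arrays for all 4 genes, and Calcb in intestine lies below the quartile.

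For all 4 genes every stomach and Barx1 intestine array read above both intestine arrays, an arrangement that the choice of genes required and that 19.3% of all genes showed. Taken separately, both stomach arrays exceeded both intestine arrays in 34.5% of genes, and both Barx1 intestine arrays did so in 30.1%. Differences from intestine of at least 1 in stomach and in Barx1 intestine together were found in 28 genes, among them these 4. With values raised to the lower quartile there were 24, and Calcb was not among them (0.96 in Barx1 intestine). At 2 or more in both there were 8 genes, which included Fap and Esm1, whereas Nrk and Calcb exceeded 2 in stomach only. In bulk cultures such as these, fewer cells that make a transcript and less transcript per cell cannot be told apart.

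The comparison of Barx1 intestine with stomach was not itself used to pick the genes, and it asks how far the levels with BARX1 stood from those of stomach. It rests on the same arrays, however, and equals the difference between the comparisons that did pick them. A choice by high stomach levels can lower it, and a choice by raised Barx1 intestine levels can raise it. Its p-values and intervals are therefore not independent of the choice. Esm1 was lower in Barx1 intestine by a log2 difference of -0.64 (SE 0.09, 95% interval -0.86 to -0.41, adjusted p = 0.0267 by limma), which is 1.55-fold less. It was the 1 gene of the 4 that passed an adjusted p of 0.05, where 5.2% of all genes passed in either direction and 2.64% in this direction. Each of the 4 fits that left out a stomach or a Barx1 intestine array ended that call, with an adjusted p of 0.111 and 0.178 without stomach replicates 1 and 2, and of 0.130 and 0.0929 without Barx1 intestine replicates 1 and 2. The difference itself ranged from -0.71 to -0.56 in those fits.

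Fap, although the most raised of the 4, differed from stomach by -0.82 (SE 0.20, 95% interval -1.32 to -0.33, adjusted p = 0.0781 by limma) and did not pass. It passed when intestine replicate 1 or replicate 2 was left out (adjusted p = 0.0264 in both fits), since the difference of those arrays then no longer enters the shared estimate of spread. Calcb differed by -0.78 (SE 0.28, 95% interval -1.48 to -0.08, adjusted p = 0.171) and likewise did not pass. Without Barx1 intestine replicate 2 its difference was -1.22 and passed (adjusted p = 0.0466), and without replicate 1 it was -0.34. Nrk showed the smallest difference of the 4, -0.20 (SE 0.09, adjusted p = 0.237), with a 95% interval from -0.41 to 0.02. In all 4 genes both Barx1 intestine arrays read below both stomach arrays, as did 28.5% of all genes. The gap between the nearest arrays was 0.06 for Nrk, 0.21 for Calcb, 0.53 for Esm1 and 0.66 for Fap. With 2 arrays against 2, an exact two-sided permutation test of a single gene cannot go below p = 0.333.

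**Figure D3:**
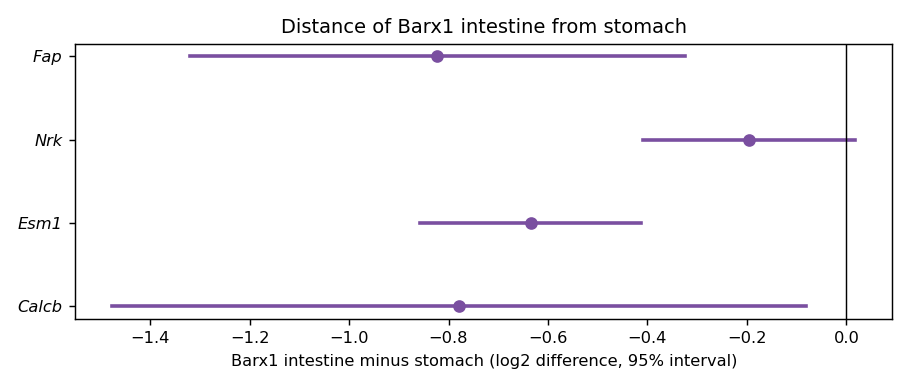
Difference between the mean log2 levels of Barx1 intestine and stomach (horizontal axis) for the 4 genes, with points for the limma estimate and lines for its 95% interval, not adjusted for the number of genes. All points lie below 0, and only the interval of Nrk (-0.41 to 0.02) includes 0.

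Promoter windows of 300 bases, from 250 before to 50 after the start site, were read from RefSeq for GRCm38.p6, where they were matched for Esm1 and Nrk among the 4 genes. The start site used for the Nrk window, 138914430, lies inside the gene as placed above (from 138914231), so most of that window lies within the gene. For Esm1 both starts are 113209659. They are shown because both transcripts were high where the homeodomain gene Barx1 was high, while their promoters differ in composition. Capitals mark TAAT, the core shared by the sites of many homeodomain proteins, searched as TAAT or ATTA on the strand shown.
Esm1 (chr13:113209409-113209708, plus strand): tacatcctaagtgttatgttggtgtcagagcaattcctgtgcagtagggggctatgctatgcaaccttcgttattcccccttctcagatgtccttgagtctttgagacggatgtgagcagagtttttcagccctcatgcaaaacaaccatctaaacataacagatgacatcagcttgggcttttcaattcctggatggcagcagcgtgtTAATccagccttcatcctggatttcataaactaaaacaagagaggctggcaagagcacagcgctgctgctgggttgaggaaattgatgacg
Nrk (chrX:138914180-138914479, plus strand): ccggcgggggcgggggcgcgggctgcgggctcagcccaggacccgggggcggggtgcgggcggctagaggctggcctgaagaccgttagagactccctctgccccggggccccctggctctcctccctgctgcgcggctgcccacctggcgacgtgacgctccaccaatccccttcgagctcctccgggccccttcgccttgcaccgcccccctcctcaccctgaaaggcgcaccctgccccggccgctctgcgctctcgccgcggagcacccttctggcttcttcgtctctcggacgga
The Esm1 window was 46.3% G and C with 5 CG pairs, and that of Nrk was 74.7% G and C with 31 CG pairs, above the G and C share of 95.8% of all windows. Esm1 held 1 TAAT, at position -41 counted from the start site, and Nrk held 0, against 58.0% of the 32851 windows of this length with at least 1. The longer TAATTG, which contains TAAT, and the TATA-box core TATAAA were in neither window on either strand, and 8.0% and 13.6% of all windows held them. These matches describe letters in the window and were not tested for binding.

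Chromosomal neighbours of the 4 genes were read as genes that were not chosen for their levels, so that smaller differences than those of the 4 follow from the choice. For each gene the nearest 3 measured protein-coding genes on either side were read, 24 in all, at distances of 17.3 to 1915.8 kb. Of these, 0 were higher in stomach than in intestine at an adjusted p under 0.05 by limma, and 2 were lower, Dpp4 (-0.83, adjusted p = 0.00426) beside Fap, although at levels not shown to exceed background, and Rras2 (-0.45, adjusted p = 0.0112) on the side of Calcb, where 16.9% of all genes passed, 8.86% as higher and 8.09% as lower. With BARX1 in intestine, against the intestine controls, 0 were higher and 2 lower, Dpp4 (-0.64, adjusted p = 0.0204) and Sox6 (-0.65, adjusted p = 0.0397), against 3.98% of all genes, 1.86% as higher and 2.12% as lower. Differences of the 24 neighbours ran from -0.83 to 0.27 in stomach and from -0.65 to 0.56 in Barx1 intestine. Dpp4, which encodes the protease most closely related to FAP and lies 88.6 kb away, read 3.88 for stomach, 4.07 for Barx1 intestine and 4.71 for intestine, all at or below the lower quartile. With values raised to that quartile both calls of Dpp4 ended (differences of 0.03 and 0.004, adjusted p = 0.368 and 0.912). The call of Sox6 also ended (adjusted p = 0.0546), but all its values lay above the quartile and its difference stayed -0.65. For Sox6 only the fit over all genes had changed. Gcg, the proglucagon gene between Dpp4 and Fap, read 3.20, 3.21 and 3.02, below the lower quartile on all 6 arrays. The same held for Slc4a10, Kcnh7, Il1rapl2, Trap1a, Tbc1d8b, Gzma and Hspb3, whose levels were not shown to exceed background in any group. Set against stomach, Barx1 intestine had 1 neighbour higher, Rras2 (0.69, adjusted p = 0.0123), where 2.56% of all genes were called higher.

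**Figure D4:**
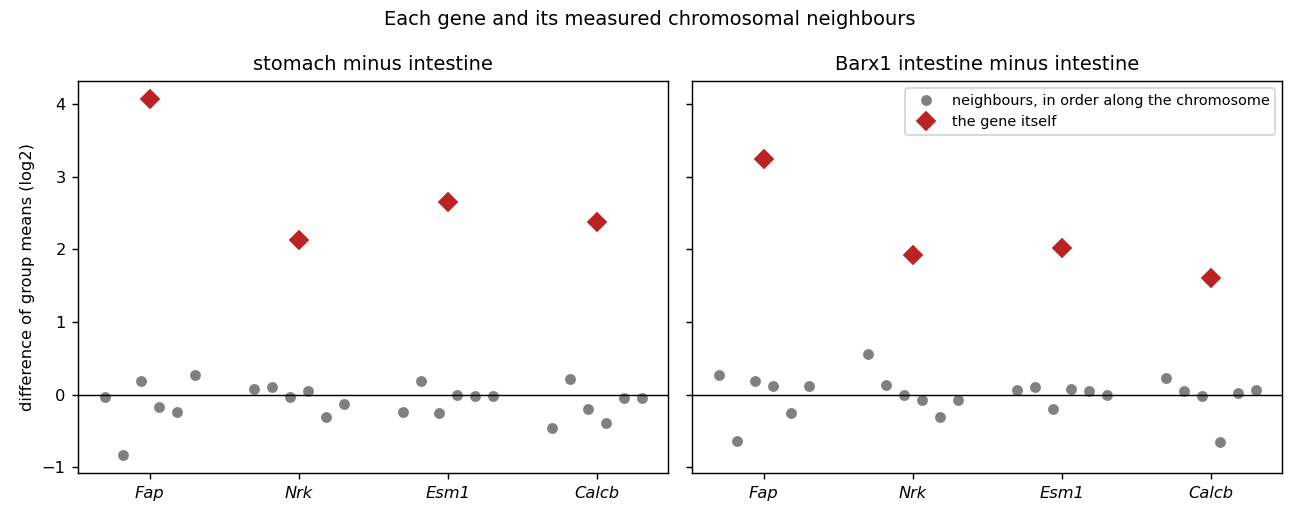
Difference of group means from intestine (log2, vertical axis) in stomach (left) and Barx1 intestine (right) for each of the 4 genes (red diamonds) and its 6 nearest measured neighbours (grey points, in chromosomal order). The neighbours lie between -0.83 and 0.56; the 4 genes, which were chosen for large differences, lie higher, and Calcb is drawn without the floor at the quartile.

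Relatives and partners of each product were read from lists that were not chosen by how their genes moved. Some calls named for lists and neighbours held in all 6 fits that left out 1 array and with values raised to the lower quartile. They were those of Col1a2, Pdgfra, Thy1, Esam, Erbb3 and Myocd in stomach and of Erbb3 in Barx1 intestine against intestine. That of Dpp4 in stomach held in the 6 fits but not with raised values, and the others were lost in at least 1 of the 6. Those of Cnn1 and Smtn in stomach were lost in all 6. So were those of Itga3, Icam1, Sox6, Pecam1 and Robo4 in Barx1 intestine against intestine. Counts of called genes are to be read against the shares over all genes given above. These were 8.86% higher and 8.09% lower in stomach, and 1.86% and 2.12% in Barx1 intestine against intestine. In Barx1 intestine against stomach they were 2.56% and 2.64%. Of 6 measured prolyl peptidases related to FAP, 1 rose in stomach against intestine, the cytoplasmic peptidase gene Dpp8 (0.35, adjusted p = 0.0238), and Dpp4 was called lower, at levels near background as described. The list median was -0.03, against 0.02 for all genes. In Barx1 intestine against intestine, Dpp4 was again called lower and 0 were higher, with a list median of -0.003 against 0.02. FAP is usually placed among fibroblast and matrix genes, and these were read in the same list as genes of its partners, such as Plaur, Itga3 and Itgb1. Of 17 such genes, 6 rose in stomach and 1 fell (16.9% of all genes were called), and 3 in all were called without stomach replicate 1 or replicate 2. Among them were the collagen genes Col1a2 (1.98, adjusted p = 0.00326) and Col1a1 (0.72, adjusted p = 0.00940), the PDGF receptor gene Pdgfra (1.63, adjusted p = 0.00426) and the surface glycoprotein gene Thy1 (1.52, adjusted p = 0.00426), all higher. With BARX1 in intestine 2 of the 17 rose, the calcium-binding protein gene S100a4 (1.14, adjusted p = 0.0222) and the integrin gene Itga3 (0.47, adjusted p = 0.0412), and 0 fell. Their median was 0.09 in stomach and -0.10 in Barx1 intestine. Col1a2 read 14.28, 11.82 and 12.30 for stomach, Barx1 intestine and intestine, and with BARX1 it was below that of stomach (-2.46, adjusted p = 0.00832), as were 4 other members, while Itga3 was higher (0.45, adjusted p = 0.0373). None of these calls against stomach held in every fit that left out 1 array, although the difference of Col1a2 stayed between -2.62 and -2.31.

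Of 15 measured Ste20 kinases and members of the JNK cascade, to which NRK signals, 0 rose and 3 fell in stomach. They were the Hippo kinase gene Stk4 (-0.55, adjusted p = 0.00799), Map3k1 (-0.41, adjusted p = 0.0199) and the JNK2 gene Mapk9 (-0.33, adjusted p = 0.0281). In Barx1 intestine against intestine 0 of the 15 passed by limma, and 3 had an unadjusted p under 0.05. Map4k4 and Mink1, close relatives of Nrk named for that reason after their values were seen, read 9.90 and 8.18 for stomach, 10.01 and 8.14 for Barx1 intestine and 9.85 and 8.04 for intestine. The list medians were -0.03 and 0.004. Against stomach, Barx1 intestine had Map4k5 higher (0.39, adjusted p = 0.0289).

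The VEGF system, to which Esm1 responds in blood vessels, was read in the same list as genes of endocan partners. Beside VEGF ligands and receptors, that list held Hgf, Met, Fgf2, Icam1, Itgal and Itgb2. Of its 16 genes, 5 were higher and 3 lower in stomach, beside 8.86% and 8.09% of all genes. Without stomach replicate 1 the 8 calls were 2, and without stomach replicate 2 they were 0. Vegfd, a ligand, read 6.44, 4.36 and 3.92 for stomach, Barx1 intestine and intestine, a difference of 2.52 between stomach and intestine (adjusted p = 0.00584). Both intestine arrays and 1 of Barx1 intestine lay below the lower quartile, and with values raised to it the difference was 1.71 (adjusted p = 0.00564). Its difference between Barx1 intestine and intestine was 0.44 (adjusted p = 0.393), and Barx1 intestine lay below stomach by a difference of -2.08 (adjusted p = 0.0227), or -1.70 with raised values. Vegfa was higher in stomach by 0.45 (adjusted p = 0.0159), and the receptor gene Kdr was lower (-1.59, adjusted p = 0.00514), as was the co-receptor gene Nrp2 (-0.74, adjusted p = 0.00989). Against intestine, Barx1 intestine had 0 higher and 3 lower, Vegfc (-0.83, adjusted p = 0.0163), Nrp2 (-0.72, adjusted p = 0.0274) and Icam1 (-0.65, adjusted p = 0.0347). The medians were -0.02 and 0.05.

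Of 8 measured calcitonin family peptides and receptors, 0 rose and 1 fell in stomach. That gene, Adm, encodes the vessel-dilating peptide adrenomedullin (-1.35, adjusted p = 0.0172). Between Barx1 intestine and intestine 0 of the 8 passed by limma, with 2 at an unadjusted p under 0.05. Adm stood higher in Barx1 intestine than in stomach (1.28, adjusted p = 0.0414, or 0.0636 with values raised to the lower quartile). No Adm value lay below that quartile, so its difference was the same in both fits. The CGRP receptor is formed by Calcrl with Ramp1. Calcrl read 6.10, 6.12 and 6.04 for stomach, Barx1 intestine and intestine, and Ramp1 read 8.81, 8.87 and 8.33. The differences of Ramp1 from intestine were 0.48 (adjusted p = 0.0540) and 0.53 (adjusted p = 0.0781) and did not pass. Of the 5 other measured genes, Ramp3 read 7.75, 8.04 and 7.15, Iapp read 5.96, 5.93 and 4.49, and neither passed (adjusted p from 0.0513 to 0.364 against intestine). The Barx1 intestine arrays of Iapp read 7.23 and 4.63, and its difference from intestine was 0.13 without replicate 1 and 2.73 without replicate 2 of that group. List medians were 0.02 in stomach and 0.09 in Barx1 intestine.

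Markers of cell types in which these genes are best known were read beside them. The 18 endothelial genes had list means of 5.19 and 5.21 for stomach, 5.25 and 5.24 for Barx1 intestine and 5.28 and 5.36 for intestine. Pecam1, Cdh5, Tek, Tie1 and Vwf, 5 defining endothelial genes, lay below the lower quartile on all 6 arrays, whereas 9 of the 18 lay above it on all 6. These included Esam, Apln and Eng, with ranges of 6.94 to 7.96, 7.32 to 7.99 and 7.55 to 8.22, and the VEGF receptor gene Kdr read 6.89 to 8.68. The part of endothelial cells in the levels of Esm1 was not tested. In stomach 0 of the 18 rose and 4 fell, among them Esam (-0.84, adjusted p = 0.00426). In Barx1 intestine Esam fell (-0.92, adjusted p = 0.00905). Pecam1 was also called lower in both (-0.59, adjusted p = 0.00961, and -0.61, adjusted p = 0.0239) and Robo4 higher in Barx1 intestine (0.47, adjusted p = 0.0484), but both had arrays below the quartile and these calls ended with values raised to it. The 19 genes of enteric neurons and glia had means of 6.56 and 6.40 for stomach, 6.11 and 6.21 for Barx1 intestine and 6.61 and 6.51 for intestine, and its members did not follow 1 order. Means highest in stomach, intermediate in Barx1 intestine and lowest in intestine, as for Calcb, were found in 5 of the 19 (26.3%). That share lies near the 24.9% of all genes with this order. The 5 were Gfra1 and 4 genes of neurons named after their values were seen. Vip read 8.62, 8.39 and 7.82, Gap43 8.63, 8.31 and 7.94, Nefm 7.79, 7.57 and 7.15 and Stmn2 6.58, 6.33 and 6.14. Other neuron genes of the list, also named after their values were seen, took other orders. Tubb3 (8.33, 6.42 and 7.64), Prph (5.82, 5.53 and 5.95) and Elavl4 (7.75, 7.36 and 7.39) were lowest in Barx1 intestine. In stomach Gap43 (0.69, adjusted p = 0.0154) and Vip (0.79, adjusted p = 0.0342) rose, and 3 genes of the list fell. These were genes of glia and their neural crest precursors, Erbb3 (-1.74, adjusted p = 0.00426), Ednrb (-2.40, adjusted p = 0.0133) and Sox10 (-1.09, adjusted p = 0.0234). Tac1 and Snap25 were below the lower quartile throughout. In Barx1 intestine against intestine 0 of the 19 rose and the same 3 fell, Erbb3 (-2.60, adjusted p = 0.00418), Ednrb (-3.17, adjusted p = 0.0204) and Sox10 (-1.58, adjusted p = 0.0252). The part of either cell type in the differences of Calcb was not tested.

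Macrophage and endoderm lists had their highest means in the intestine controls, in which the 4 genes were low. Macrophage and leukocyte genes (16 measured) had means of 8.89 and 9.81 for intestine, 8.49 and 8.19 for stomach and 7.19 and 8.06 for Barx1 intestine, and endoderm genes had 7.98 and 7.35, 6.30 and 6.80, and 7.24 and 6.70 in the same order. Summed on the linear scale, the endoderm list ran from 13173 to 25616 in intestine, from 5195 to 8406 in stomach and from 8323 to 13061 in Barx1 intestine, and the leukocyte list from 10302 to 19419, from 6103 to 7717 and from 3565 to 7106. Of the leukocyte genes 0 of 16 were called in stomach against intestine by limma, with 8 at an unadjusted p under 0.05. In Barx1 intestine 6 were lower than in intestine, and 0 of the 6 passed with values raised to the lower quartile. No leukocyte gene lay below that quartile on any array, so their differences did not change. Only the fit over all genes did, so those losses do not place the genes near background. Of the endoderm genes 5 of 20 were lower in stomach (2 with raised values, and 0 without stomach replicate 1 or replicate 2) and 1 of 20 in Barx1 intestine, with 0 higher. The part of these lists in the differences of the 4 genes was not tested. The 12 mesenchyme genes had means of 9.55 and 9.63 for stomach, 8.89 and 9.07 for Barx1 intestine and 8.89 and 8.93 for intestine. In Barx1 intestine 2 of the 12 rose against intestine and 1 fell (median -0.03), and in stomach 7 rose and 1 fell (median 0.55). Smooth muscle genes had 4 of 10 higher in stomach, Myocd (0.90), Lmod1 (0.44), Cnn1 (0.34) and Smtn (0.31). Only the call of Myocd held in every fit that left out 1 array. In Barx1 intestine against intestine 0 of 10 passed the threshold by limma, with 3 at an unadjusted p under 0.05.

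**Figure D5:**
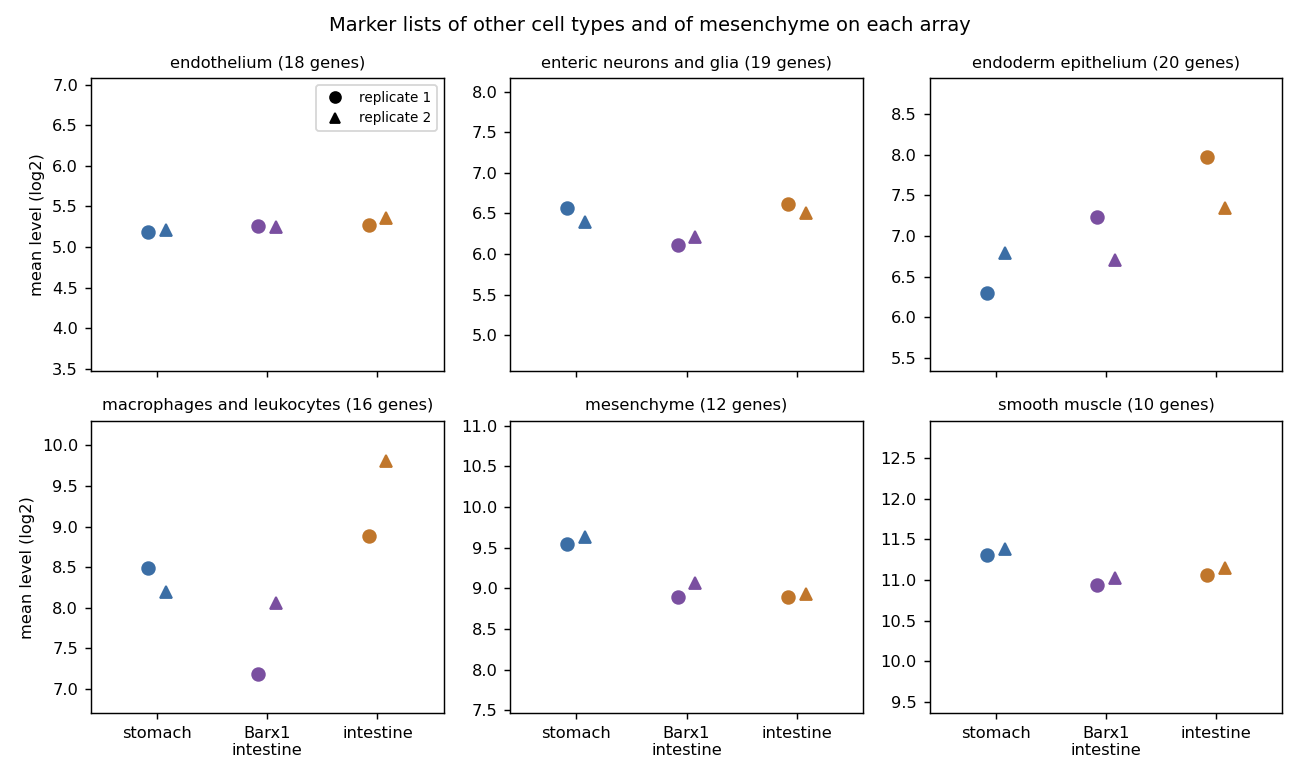
Mean log2 level (vertical axis) of the measured genes of 6 marker lists on each array by group; circles and triangles are replicates 1 and 2, and each panel spans the same number of log2 units. Endothelial genes stay between 5.19 and 5.36, while the endoderm and leukocyte lists are highest on the intestine arrays.

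Genes with the most similar profile were found for each of the 4 by the root mean square difference over the 6 arrays, after each gene's own mean was removed. The closest to Fap were Barx1 (0.37), Pitx1 (0.55), Isl1 (0.62), Esm1 (0.64) and the mineralisation inhibitor gene Mgp (0.66). The closest to Nrk was Ccn3 (0.09), a matricellular protein gene, which read 8.15, 7.98 and 5.92 for stomach, Barx1 intestine and intestine. Six2 (0.19), Esm1 (0.25), Hoxa9 (0.29) and the urea transporter gene Slc14a1 (0.30) followed. Esm1 was nearest to Ccn3 (0.22), Nrk (0.25), Pitx1 (0.30), Calcb (0.32) and Six2 (0.34), and Calcb to Esm1 (0.32), Kazald1 (0.33), Slc14a1 (0.35), Nrk (0.35) and Ccn3 (0.38). The distances are descriptions over 6 arrays that form 3 groups. By Pearson correlation among genes with a range of at least 1, 2 of the 5 genes were the same for Fap, 1 for Nrk and 0 for Esm1 and Calcb, so the names depend on the measure.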

How the data were processed

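The 6 arrays measured 22690 probe sets. The authors deposited their values on a log2 scale after RMA, which the submitters' processing notes name. Its version is not given in the sources used here, and the log2 scale was read from the range of the values. RMA brings arrays to a common distribution, so a shift of most genes would be removed. Platform annotation named 1 gene for 20380 probe sets and several for 691. Of these identifiers, 20351 were found in the RefSeq gene list. Each of 12393 genes was read from its probe set with the highest mean.

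All 6 arrays entered 1 fit of 3 group means with limma 3.58.1 in R 4.3.3. Residual degrees of freedom were 3, and limma added a prior of 2.58. Adjustment was by Benjamini-Hochberg over all genes within a comparison, and every adjusted p printed comes from limma. SE is that of the moderated fit. The p-values measure the spread between biological replicates as labelled, and with so few arrays precision is limited by their number.

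The 4 genes and the lists were chosen with earlier results of these data known. The text names the 4 genes, up to 4 genes of a list with the smallest p in a comparison, chromosomal neighbours and the 5 nearest profiles of each gene. Of the marker lists not described in the results, mesothelial genes had 2 of 6 higher and 1 lower in stomach and 0 of 6 called in Barx1 intestine against intestine, and erythroid genes had 0 of 7 called by limma in both (unadjusted p under 0.05: 2 mesothelial genes in the second comparison, and 1 and 3 erythroid genes). Motifs were searched on both strands. Alternatives covered probe sets, dim genes, scaling, a floor, a variance trend, fewer groups, the threshold, the replicate number as a block and leaving out each array.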

Additional observations from a re-analysis of the deposited data

How the results depend on the processing

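For all 4 genes the sign of each difference was the same under every alternative that gave a value, and the stomach and Barx1 intestine arrays stayed above those of intestine. The filter on dim genes removed Calcb. Averaging the probe sets of Nrk gave 1.81 in stomach and 1.56 in Barx1 intestine over intestine, and its dimmest probe set 1.22 and 0.88. With a floor at the lower quartile Calcb gave 1.74 and 0.96. Leaving out 1 array, the differences of stomach from intestine ran from 3.77 to 4.37 (Fap), 2.04 to 2.20 (Nrk), 2.56 to 2.74 (Esm1) and 2.25 to 2.51 (Calcb). Those of Barx1 intestine from intestine ran from 2.95 to 3.55, 1.87 to 1.98, 1.92 to 2.10 and 1.16 to 2.04.

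In Barx1 intestine against stomach, 1 of the 4 genes was called, and 2 with the dim-gene filter (Fap -0.82, adjusted p = 0.0478 by limma), with a variance trend (Fap -0.82, adjusted p = 0.0449) and with 2 groups in the fit (Fap -0.82, adjusted p = 0.0264). At an adjusted p of 0.01, 0 were called (Esm1 -0.64), with 3 at an unadjusted p under 0.05. Without 1 array 0 to 2 were called, and the differences ran from -0.93 to -0.71 (Fap), -0.28 to -0.11 (Nrk), -0.71 to -0.56 (Esm1) and -1.22 to -0.34 (Calcb). The adjusted p ranged over all settings from 0.0264 to 0.305 for Fap, 0.0136 to 0.178 for Esm1, 0.0466 to 0.483 for Calcb and 0.15 to 0.628 for Nrk.

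Counts over all genes moved more. The 2100, 493 and 644 calls (stomach and Barx1 intestine over intestine, then Barx1 intestine over stomach) were 512, 40 and 11 at 0.01. The last pair was 896 and 1216 with the dim-gene filter and 1037 and 1189 with a variance trend. With 2 groups in the fit 50 genes were called in Barx1 intestine against intestine. Without 1 array they ran from 281 to 1692, 50 to 466 and 0 to 727, and the 0 came without stomach replicate 2, where limma gave 1906 genes at an unadjusted p under 0.05. Of the calls of list genes and neighbours, with Barx1, 10 of 48, 2 of 24 and 0 of 21 held in all 6 such fits, with 0 changes of sign. The cause of these shifts was not tested, beyond the lost degrees of freedom that fewer arrays bring.

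The replicate numbers were not taken to pair the arrays. Deviations of same-numbered arrays correlated at -0.22 (stomach and intestine), -0.06 (stomach and Barx1 intestine) and 0.20 (both intestine groups). With the replicate block the counts were 1508, 267 and 337, and Esm1 stayed the 1 called gene of the 4 (adjusted p = 0.0276).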
